A study of Homo sapiens with 48 samples.

Results

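SCC13 xenograft tumors were set against CAL27 xenograft tumors in a pooled CRISPR knockout screen, gene by gene. The 16 SCC13 tumors and the 10 CAL27 tumors were taken by their labels, which makes 26 of the 48 samples of the series, and the same 327 genes were measured in both. SCC-13 (SCC13 here) is a squamous carcinoma line of human skin, and its cells were grown in NOD.Cg-Prkdcscid Il2rgtm1Wjl/SzJ mice. CAL27 is a squamous carcinoma line of the human tongue, and its cells were grown in SHO mice. Both lines stably expressed the Cas9 nuclease under blasticidin selection, received guide virus at low multiplicity and were selected with puromycin. A part of each population was frozen as initial cells, and the rest was injected with Matrigel into the rear flanks, from which tumors were collected after about 2 months. The library was designed against 334 genes and carried 136 non-targeting guides. Each tumor table was made against 2 initial samples of its own line. Line, mouse strain and initial cells change together between the groups, so their parts in any difference below cannot be told apart.

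In a pooled knockout screen each cell carries a guide RNA that directs Cas9 to cut 1 gene, and the guide sequence in genomic DNA marks the descendants of that cell. A guide that becomes rarer marks a knockout that held back growth or survival, and a guide that becomes more common marks a knockout that outgrew the others. Squamous carcinomas arise from stratified epithelia, whose basal cells divide while attached to the basement membrane through integrins, and whose suprabasal cells leave the cell cycle and differentiate. The library holds genes of both programs, along with genes of replication, mitosis, chromatin and invasion. Knockouts of replication genes give the usual picture of loss in such a screen, while knockouts of cell cycle inhibitors such as CDKN2B give the usual picture of gain.

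Each value is the deposited log fold change of a gene's guides between the initial cells and 1 tumor. No source used here names the base of the logarithm, so all sizes are in log units and none is turned into a fold. The tables do not state the direction of the ratio, and values below 0 are taken as loss of the knockout in the tumor, since most genes of DNA replication lay below 0. The non-targeting guides were at 0 in all 26 columns. Each tumor's values were centred on its median gene, so a value above 0 means that a knockout did better than the median knockout of that tumor. The columns carry no names and are called by their position in the table. The tables hold no read counts, so the depth behind a value is unknown.

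Some values were bounds. In many pairs of SCC13 tumors, groups of genes differed between both tumors by exactly the same amount. This is read here as guides that stood at 1 common lowest level in each tumor, with only the initial level of each gene behind its value. A gene was counted at this floor in a tumor where at least 4 genes shared such a difference to 6 decimals. Its true value there can be lower than the number in the table. Floor groups were found in 101 of 120 pairs of SCC13 tumors and in 6 of 45 pairs of CAL27 tumors.

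More knockouts were at the floor in SCC13 than in CAL27 tumors, and the spread between knockouts was wider. Between 8 and 145 genes per tumor were at the floor in SCC13, against 0 to 16 in CAL27. As a share of the 327 genes this was 26.4% ± 11.3 (SD, n = 16) in SCC13 tumors and 1.59% ± 1.97 (SD, n = 10) in CAL27 tumors (permutation test, two-sided, p = 2.0e-05, the smallest that 100000 resamples can give, adjusted p = 6.0e-05 over 3 tumor measures). The lowest SCC13 share was 2.45% and the highest CAL27 share was 4.89%, so the ranges overlapped only through SCC13 value columns 5 and 8, at 3.98% and 2.45%. The SD over genes within a tumor was 2.32 ± 0.30 log units in SCC13, with a range of 1.89 to 2.87, against 1.70 ± 0.33 in CAL27, with a range of 1.09 to 2.23 (permutation test, adjusted p = 9.0e-05). Before centring, the median gene stood at -1.62 ± 0.80 log units in SCC13 tumors and at -0.81 ± 0.29 in CAL27 tumors against the non-targeting guides (permutation test, adjusted p = 0.00566). SCC13 value column 3 was the only tumor of either line whose median gene lay above the non-targeting guides, at 0.53, and the difference between the lines was -0.81 log units with it and -0.95 without it.

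**Figure D1:**
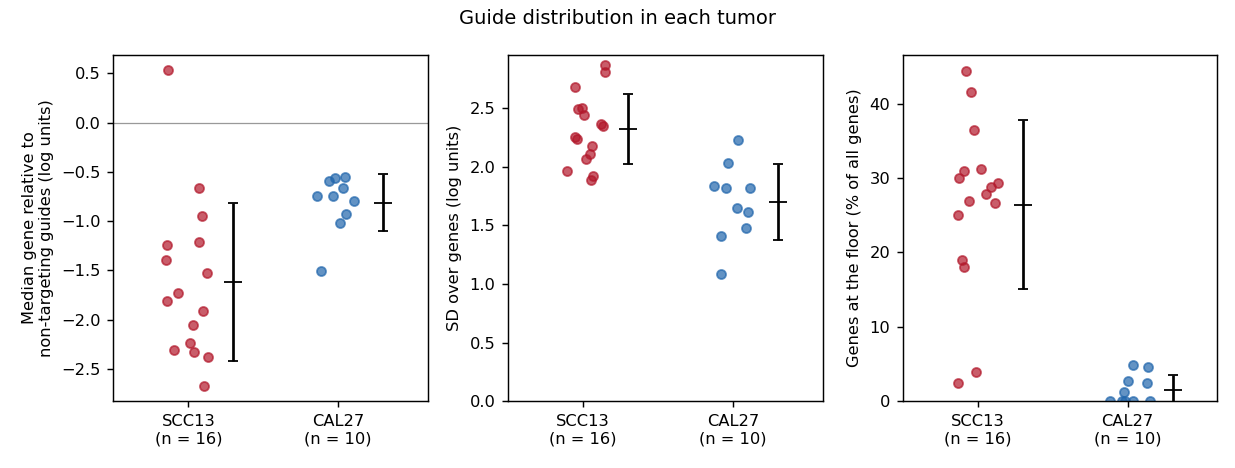
Each point is 1 tumor, with SCC13 tumors on the left (n = 16) and CAL27 tumors on the right (n = 10) of each panel, and bars mark the mean and SD. The panels plot the median gene relative to the non-targeting guides (log units), the SD over genes (log units) and the share of genes at the floor (percent). Most SCC13 tumors had many genes at the floor, up to 44.3%, while no CAL27 tumor exceeded 4.89%.

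The correlation across genes between 2 SCC13 tumors averaged 0.39 over 120 pairs, with a range of 0.05 to 0.79, and between 2 CAL27 tumors it averaged 0.54 over 45 pairs, with a range of 0.43 to 0.64. Between an SCC13 and a CAL27 tumor it averaged 0.31 over 160 pairs. Tumors of a line share their initial cells, which enters the correlations within a line and not those between lines. The SD over tumors was larger in SCC13 for 292 of 327 genes, with a median ratio of 1.70. Across genes, the SCC13 and CAL27 means had a Pearson correlation of 0.63 and a Spearman correlation of 0.59. Genes are not independent replicates, so these are descriptions.

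Knockouts of CDKN2B, TUBB4B and KLF7 were higher in SCC13 than in CAL27 tumors, and knockouts of EZH2, DEK and USF2 were lower. In all, 20 genes were higher in SCC13 tumors (6.12% of 327) and 20 were lower (6.12%), by limma with Benjamini-Hochberg adjusted p under 0.05. At an unadjusted p under 0.05 the count was 90. On the deposited scale, on which non-targeting guides are at 0 and no centring is done, the split was 9 higher and 46 lower, and the median difference of all genes was -0.64 log units without centring and 0.17 with it. All 20 lower genes and 9 of the 20 higher genes kept their calls on that scale. The 9 were CDKN2B, TUBB4B, KLF7, FAM46B, PTRF, RFX5, BIRC5, PCNA and TUBB. Those that did not pass there included ANXA2 (1.64, adjusted p = 0.0666), DEFB1 (1.55, adjusted p = 0.0869), TNFRSF12A (1.23, adjusted p = 0.163), ADM (1.39, adjusted p = 0.245), KRT1 (1.20, adjusted p = 0.234) and CALD1 (1.18, adjusted p = 0.262). Of the 20 higher genes, 13 were never at the floor in an SCC13 tumor, against 103 of all 327 genes. All 20 lower genes were at the floor in at least 2 SCC13 tumors and in no CAL27 tumor, so their SCC13 means on the deposited scale are upper bounds. Over all 327 genes, 224 had an SCC13 floor value and 23 had a CAL27 floor value. After centring, the SCC13 means of the lower genes need not be upper bounds, since some floor values lie above the median gene, whose own level may then be too high.

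**Figure D2:**
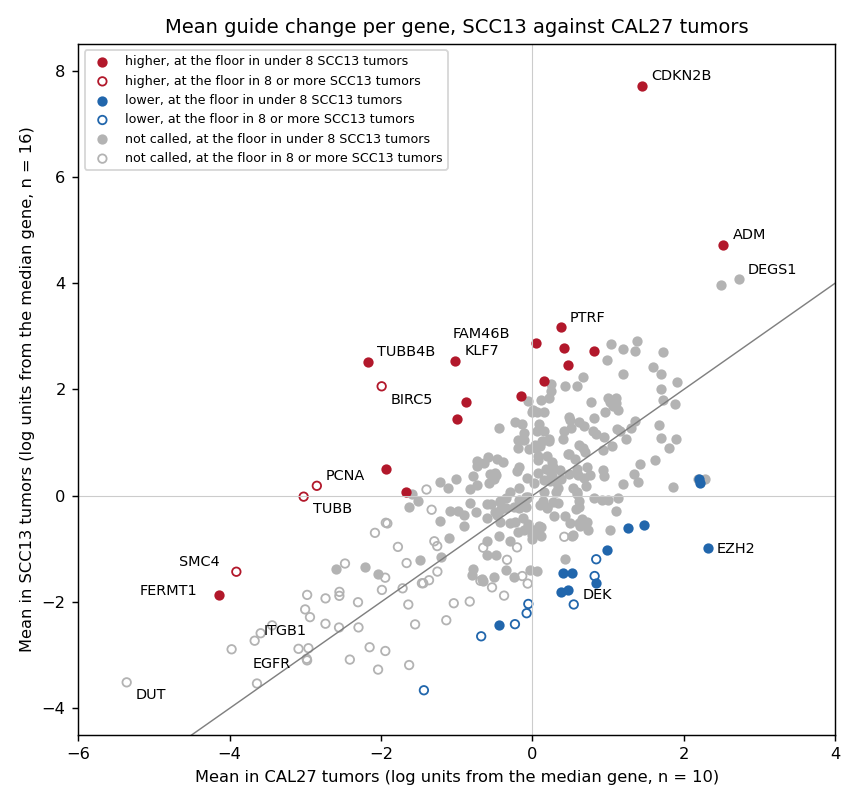
Each point is 1 of 327 genes, placed by its mean in CAL27 tumors (x axis, n = 10) and in SCC13 tumors (y axis, n = 16), in log units from the median gene, with the diagonal marking equal means. Red genes were higher and blue genes lower in SCC13 tumors, and open points were at the floor in 8 or more SCC13 tumors. CDKN2B stands alone at the top, and the open red points BIRC5, PCNA, TUBB and SMC4 rest on floor values.

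The most different knockout was that of CDKN2B, which encodes p15INK4b, an inhibitor of the cyclin D-dependent kinases that start the cell cycle. In SCC13 tumors it had values of 2.74 at the lowest, 7.77 at the median and 11.42 at the highest, against 0.34, 1.24 and 3.77 log units in CAL27 tumors. It was above the median gene in 16 of 16 SCC13 and in 10 of 10 CAL27 tumors, and 15 SCC13 tumors exceeded the highest CAL27 tumor. The mean was 7.72 ± 2.73 in SCC13 tumors and 1.45 ± 1.05 in CAL27 tumors, a difference of 6.26 log units (SE 0.74, limma adjusted p = 5.57e-10). The knockout thus stood above the median gene in both lines, and further above it in SCC13. Relative to the non-targeting guides its mean was 6.10 in SCC13 and 0.64 in CAL27 tumors. The difference was 3.20 log units when the 12 SCC13 tumors with more than 25.0% of their genes at the floor were left out, and it still passed the test there. In the 4 SCC13 tumors that remained, value columns 4, 5, 8 and 10, CDKN2B stood at 2.74, 4.50, 3.88 and 7.49.

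TUBB4B and KLF7 went in opposite directions in the lines, and they were the only genes of 327 (0.612%) whose values in the 2 lines did not overlap. TUBB4B encodes a beta-tubulin of the microtubule. Its values in SCC13 tumors were 0.48 at the lowest, 2.65 at the median and 4.30 at the highest, against -4.37, -2.11 and -0.46 log units in CAL27 tumors. Every SCC13 tumor lay above its median gene and every CAL27 tumor below it. The difference was 4.69 log units (SE 0.59, limma adjusted p = 2.86e-09). KLF7, a zinc-finger transcription factor of the Krüppel-like family, had 0.37, 3.02 and 4.44 in SCC13 tumors, against -4.41, -0.59 and 0.34 in CAL27 tumors. Only 1 CAL27 tumor had it above the median gene. The difference was 3.56 log units (SE 0.61, limma adjusted p = 1.47e-05). Both genes were never at the floor in either line, and both passed in all 26 fits that left out 1 tumor. In the 4 SCC13 tumors with the fewest floor genes the calls also held, with differences of 3.61 for TUBB4B and 2.59 for KLF7.

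The other genes that were higher in SCC13 tumors without any floor value had smaller differences. Over the 103 genes never at the floor in either line, the median difference was 0.81 log units, against 0.17 over all 327 genes. Genes without floor values thus stood higher in SCC13 as a class after centring, and the differences below include that shift. FAM46B, a noncanonical poly(A) polymerase also called TENT5B, averaged 2.87 ± 1.86 in SCC13 and 0.04 ± 1.04 in CAL27 tumors (difference 2.83, limma adjusted p = 0.00144). PTRF, also called cavin-1, forms the coat of caveolae and averaged 3.17 ± 1.77 in SCC13 and 0.38 ± 0.85 in CAL27 tumors (difference 2.79, adjusted p = 0.00142). In 12 of 16 SCC13 tumors each of these stood above the highest CAL27 tumor. RFX5, a subunit of the complex that switches on MHC class II promoters, averaged 1.76 ± 1.50 in SCC13 and -0.88 ± 1.72 in CAL27 tumors (difference 2.64, adjusted p = 0.00322). DEFB1, an antimicrobial beta-defensin of epithelia, averaged 2.78 ± 1.80 in SCC13 and 0.42 ± 0.97 in CAL27 tumors (difference 2.35, adjusted p = 0.00894). All 4 were called higher than the median gene in SCC13 tumors and were not called in CAL27 tumors. Relative to the non-targeting guides, RFX5 averaged 0.14 in SCC13 and -1.70 in CAL27 tumors. Without the 12 SCC13 tumors rich in floor values, RFX5 still passed, with a difference of 2.62 (adjusted p = 0.0419). FAM46B (1.54, adjusted p = 0.168), PTRF (1.23, adjusted p = 0.244) and DEFB1 (1.97, adjusted p = 0.11) did not.

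ANXA2, a calcium-dependent membrane-binding protein, was on opposite sides of the median gene. It ranged from -1.61 to 3.46 in SCC13 tumors with a median of 1.75, against a range of -1.76 to -0.23 and a median of -0.86 in CAL27 tumors. All 10 CAL27 tumors were below the median gene, and 13 of 16 SCC13 tumors were above it and above the highest CAL27 tumor. The difference was 2.44 log units (SE 0.61, limma adjusted p = 0.00379), and 1.20 without the 12 SCC13 tumors rich in floor values, where it did not pass (adjusted p = 0.289). Relative to the non-targeting guides, ANXA2 averaged -0.17 in SCC13 and -1.81 in CAL27 tumors, below those guides in both lines.

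TNFRSF12A (Fn14), the receptor for the cytokine TWEAK, averaged 1.88 ± 1.39 in SCC13 and -0.16 ± 0.37 in CAL27 tumors (difference 2.04, limma adjusted p = 0.016). Its means relative to the non-targeting guides were 0.26 in SCC13 and -0.97 in CAL27 tumors. KRT1, a keratin of suprabasal cells, averaged 2.16 ± 1.79 in SCC13 and 0.15 ± 1.27 in CAL27 tumors (difference 2.01, adjusted p = 0.0301). CALD1, the actin-binding caldesmon, averaged 2.46 ± 1.67 in SCC13 and 0.47 ± 1.43 in CAL27 tumors (difference 1.99, adjusted p = 0.0301). ADM, the precursor of the vasodilator peptide adrenomedullin, was high in both lines, at 4.72 ± 2.73 in SCC13 and 2.52 ± 1.05 in CAL27 tumors (difference 2.20, adjusted p = 0.037). VIM, the mesenchymal intermediate filament vimentin, was also above the median in both, at 2.73 ± 1.57 in SCC13 and 0.81 ± 0.87 in CAL27 tumors (difference 1.92, adjusted p = 0.0301), and is named after its values were seen. Of these 5, TNFRSF12A passed in every fit that left out 1 tumor, while ADM missed the threshold in 12 of 26, CALD1 in 7, KRT1 in 5 and VIM in 5. None of TNFRSF12A, KRT1, CALD1 and ADM passed without the 12 SCC13 tumors rich in floor values, with differences of 2.05, 0.28, 1.19 and 0.02, so that 4 of the 13 genes kept their calls there. Within their own line, all 13 genes were called higher than the median gene in SCC13 tumors (background 23.5% of 327 genes). In CAL27 tumors 3 of them were called higher (background 18.7%), 3 lower (background 22%) and 7 not called. The 13 were picked from these same values as high in SCC13 and never at the floor, so their calls there are no separate evidence. The background also includes the 224 genes with SCC13 floor values.

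**Figure D3:**
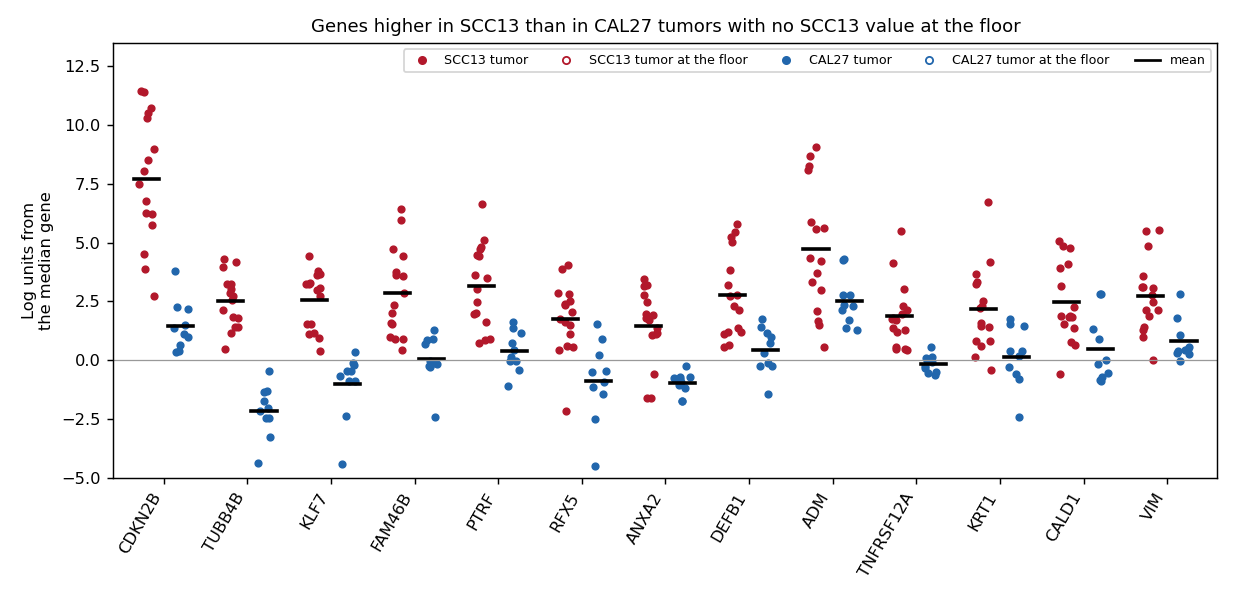
Each point is the value of a gene in 1 tumor, in log units from the median gene, with SCC13 tumors in red to the left of CAL27 tumors in blue, for the 13 genes higher in SCC13 that were never at the floor there. Bars mark means. TUBB4B and KLF7 do not overlap between the lines, and CDKN2B reaches 11.42 in SCC13 against 3.77 in CAL27.

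The remaining 7 higher genes had SCC13 values at the floor, and for most of them the tables do not settle the direction. BIRC5, which encodes the mitotic and anti-apoptotic protein survivin, averaged 2.06 ± 2.31 in SCC13 and -1.99 ± 1.43 in CAL27 tumors (difference 4.05, SE 0.71, limma adjusted p = 1.63e-05). However, 14 of the 16 SCC13 values were at the floor, and these ranged from -3.08 to 5.61. On the deposited scale such a value bounds the knockout from above only, even where it lies above the median gene. A loss of BIRC5 guides in SCC13 therefore remains possible at these numbers. In SCC13 value columns 5 and 8, which had the fewest floor genes, BIRC5 stood at -2.54 and -3.08, both themselves at the floor. The SCC13 values not at the floor were 1.19 in value column 4 and 3.68 in value column 6. Both lay above the highest CAL27 value of 0.70. When values at the floor were ranked below all others, an alternative chosen after seeing the data, BIRC5 was lower in SCC13 tumors (rank-sum permutation test, adjusted p = 0.0234), the opposite of the limma call.

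The same held in part for 3 genes of replication and chromosome segregation. PCNA, the sliding clamp of DNA polymerases, averaged 0.19 in SCC13 and -2.85 in CAL27 tumors (limma adjusted p = 0.000336), with 8 SCC13 and 4 CAL27 values at the floor. TUBB, the main beta-tubulin of dividing cells, averaged -0.02 in SCC13 and -3.02 in CAL27 tumors (adjusted p = 0.000909), with 13 and 2 values at the floor. SMC4, a condensin subunit, averaged -1.43 in SCC13 and -3.91 in CAL27 tumors (adjusted p = 0.00415), also with 13 and 2 values at the floor. In SCC13 value columns 5 and 8, PCNA stood at -2.94 and -2.32, TUBB at -4.31 and -3.30, and SMC4 at -3.64 and -3.88, within the CAL27 range of each gene. The TUBB value of -4.31 was itself at the floor. With floor values ranked lowest, SMC4 was lower in SCC13 tumors (adjusted p = 0.0474), and TUBB (adjusted p = 0.0599) and PCNA (adjusted p = 0.761) did not pass. None of the 4 genes passed when the 12 SCC13 tumors rich in floor values were left out.

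JUN, a subunit of the AP-1 transcription factor, had only 2 SCC13 values at the floor. It ranged from -2.55 to 3.97 in SCC13 tumors with a median of 0.70, against -4.84 to 0.09 with a median of -1.46 in CAL27 tumors, and 10 of 16 SCC13 tumors exceeded the highest CAL27 tumor. The difference was 2.45 log units (SE 0.64, limma adjusted p = 0.00623), and it passed with floor values ranked lowest (adjusted p = 0.0482). It did not pass without the 12 SCC13 tumors rich in floor values (2.27, adjusted p = 0.0586) or on the deposited scale (1.64, adjusted p = 0.0962). FERMT1, the gene of kindlin-1, which helps to activate integrins, was lost in both lines, at -1.88 ± 1.98 in SCC13 tumors and -4.14 ± 1.24 in CAL27 tumors. The loss was smaller in SCC13 by 2.26 log units (SE 0.67, limma adjusted p = 0.0162), with 5 SCC13 and 2 CAL27 values at the floor, and the difference did not pass with floor values ranked lowest (adjusted p = 0.198). FERMT1 also did not pass on the deposited scale (1.46, limma adjusted p = 0.164) or without the 12 SCC13 tumors rich in floor values (2.12, adjusted p = 0.107). S100A16, a calcium-binding S100 protein named after its values were seen, had a difference of 1.75 (adjusted p = 0.0469) that missed the threshold in 15 of 26 fits without 1 tumor.

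**Figure D4:**
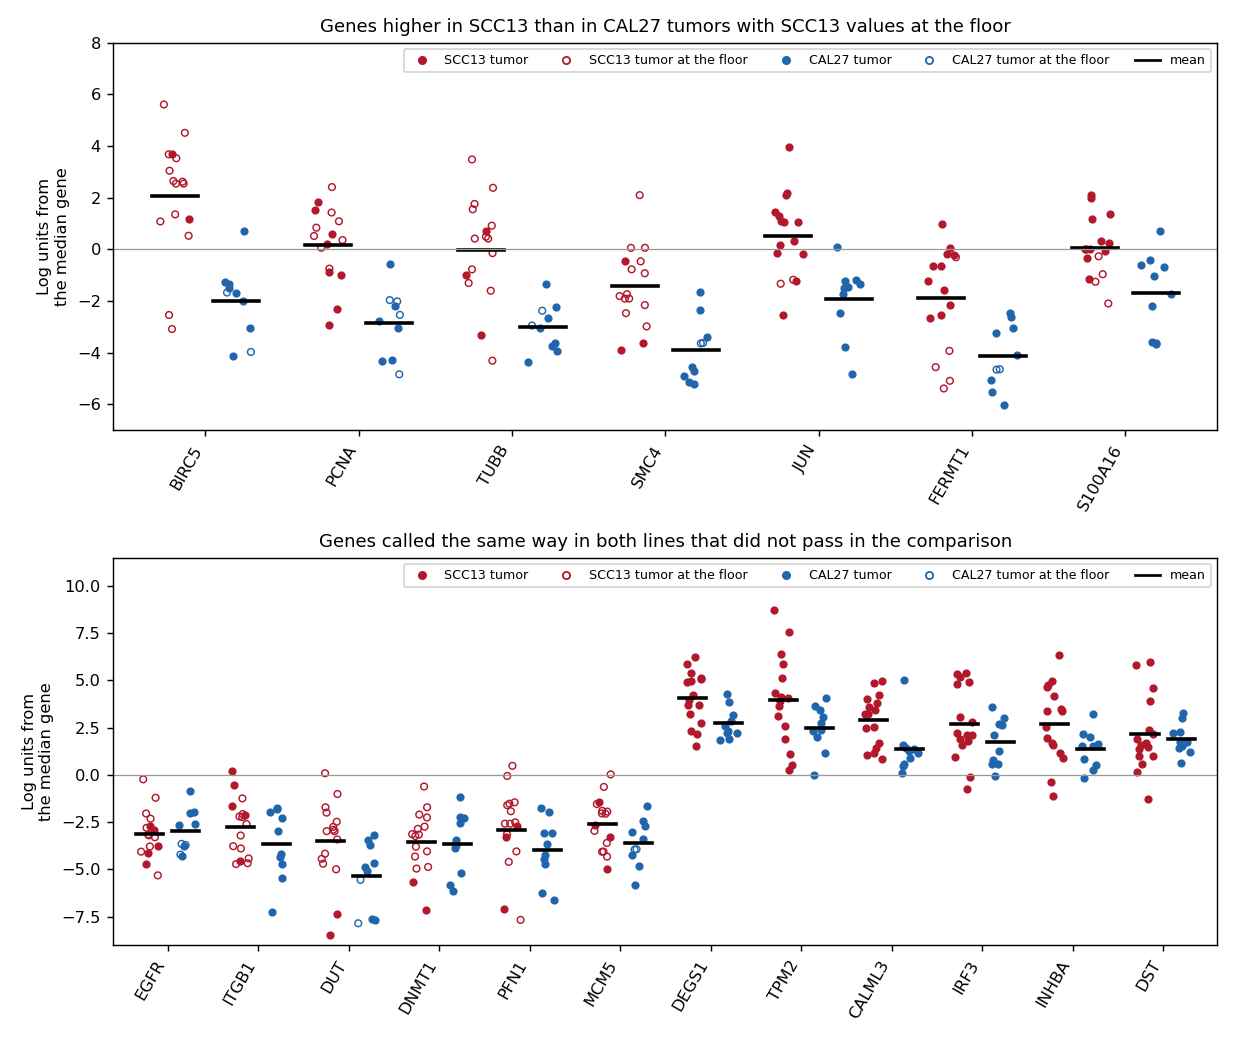
Each point is the value of a gene in 1 tumor, in log units from the median gene, with SCC13 tumors in red to the left of CAL27 tumors in blue, and open points at the floor. The upper panel shows the 7 higher genes with SCC13 floor values and the lower panel 12 genes called the same way in both lines that did not pass in the comparison. Of the BIRC5 values in SCC13, 14 of 16 are open, and EGFR has a mean of -3.10 in SCC13 and -2.98 in CAL27.

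Among the knockouts that were lower in SCC13 tumors, that of EZH2 had the largest difference. EZH2 is the methyltransferase of Polycomb repressive complex 2, which marks genes for silencing. In SCC13 tumors its values were -5.51 at the lowest, -0.40 at the median and 1.48 at the highest, against 0.48, 2.64 and 3.82 log units in CAL27 tumors. The knockout was above the median gene in 6 of 16 SCC13 tumors and in 10 of 10 CAL27 tumors, and 12 SCC13 tumors lay below the lowest CAL27 tumor. The mean was -0.98 ± 2.11 in SCC13 and 2.31 ± 1.07 in CAL27 tumors, a difference of -3.29 log units (SE 0.67, limma adjusted p = 0.000336). Only 4 of the SCC13 values were at the floor. EZH2 was called higher than the median gene in CAL27 tumors and was not called in SCC13 tumors.

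DEK, a chromatin protein that binds DNA and histones, ranged from -4.58 to 0.04 in SCC13 tumors with a median of -2.03, against -1.56 to 2.08 with a median of 0.50 in CAL27 tumors. The difference was -2.59 log units (SE 0.62, limma adjusted p = 0.00272), and -4.12 without the 12 SCC13 tumors rich in floor values. USF2, a basic helix-loop-helix leucine zipper transcription factor, averaged -1.65 ± 2.24 in SCC13 and 0.84 ± 0.99 in CAL27 tumors (difference -2.49, adjusted p = 0.00962). TMEM45A, a transmembrane protein of keratinocytes, averaged -1.51 ± 1.54 in SCC13 and 0.82 ± 0.79 in CAL27 tumors (difference -2.33, adjusted p = 0.00623). Knockouts of USF2 and TMEM45A were called below the median gene in SCC13 and above it in CAL27 by the test within each line. Relative to the non-targeting guides, their CAL27 means were 0.03 and 0.007, level with those guides.

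The other transcription and cell cycle factors among the lower genes lay near the median gene in CAL27 tumors. KLF8, another Krüppel-like factor, averaged -1.78 in SCC13 and 0.47 in CAL27 tumors (difference -2.25, limma adjusted p = 0.0129). FOS, the AP-1 partner of JUN, averaged -2.21 in SCC13 and -0.08 in CAL27 tumors (difference -2.13, adjusted p = 0.0162), so that JUN and FOS differed in opposite directions. FOS was at the floor in 8 SCC13 tumors, and 11 SCC13 tumors lay below the lowest CAL27 tumor. CCND2, a D-type cyclin, averaged -2.42 in SCC13 and -0.23 in CAL27 tumors (difference -2.19, adjusted p = 0.0162). MYBL2, a transcription factor of the late cell cycle, averaged -1.81 in SCC13 and 0.37 in CAL27 tumors (difference -2.18, adjusted p = 0.0129).

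DNAJC9, a co-chaperone of histones, was lost in both lines, at -3.66 in SCC13 and -1.43 in CAL27 tumors (difference -2.23, limma adjusted p = 0.0301). It was at the floor in 14 SCC13 tumors and passed in 18 of 26 fits without 1 tumor. It missed the threshold with columns divided by their SD (adjusted p = 0.113), with percentile ranks (adjusted p = 0.0775) and by the rank-sum permutation test (adjusted p = 0.101). Without the 12 SCC13 tumors rich in floor values it passed (-4.94, limma adjusted p = 0.00188). RANBP1, which assists the nuclear transport GTPase Ran, averaged -1.20 in SCC13 and 0.84 in CAL27 tumors (difference -2.04, adjusted p = 0.0254). HIST1H1A, a linker histone gene, averaged -0.56 in SCC13 and 1.48 in CAL27 tumors (difference -2.04, adjusted p = 0.0162). EMP3, an epithelial membrane protein, averaged -1.02 in SCC13 and 0.99 in CAL27 tumors (difference -2.01, adjusted p = 0.0301), and a difference of -0.11 without the 12 SCC13 tumors rich in floor values. Without them RANBP1 had a difference of -1.02 (adjusted p = 0.403) and HIST1H1A of -0.91 (adjusted p = 0.422), so neither passed there. Of the 20 lower genes, 12 kept their calls without those tumors, and 9 passed in every fit that left out 1 tumor. The remaining 8 lower genes fall outside the rule for named genes and are named after their values were seen. They were SFN (14-3-3 sigma), the nuclear import receptor KPNA2, the sulfotransferase SULT2B1, the histone gene HIST1H4C, the beta-actin gene ACTB, the secreted epidermal protein DMKN, the chromatin protein HMGB1 and the thymidylate synthase TYMS, with the smallest difference of the 20 at -1.85 for TYMS. ACTB was at the floor in all 16 SCC13 tumors. In their own line, 14 of the 20 were called lower in SCC13 tumors (background 23.9%), while in CAL27 tumors 8 were called higher (background 18.7%), 11 were not called and 1, DNAJC9, was called lower (background 22%). The 20 were picked from these same values, so these calls are no separate evidence.

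**Figure D5:**
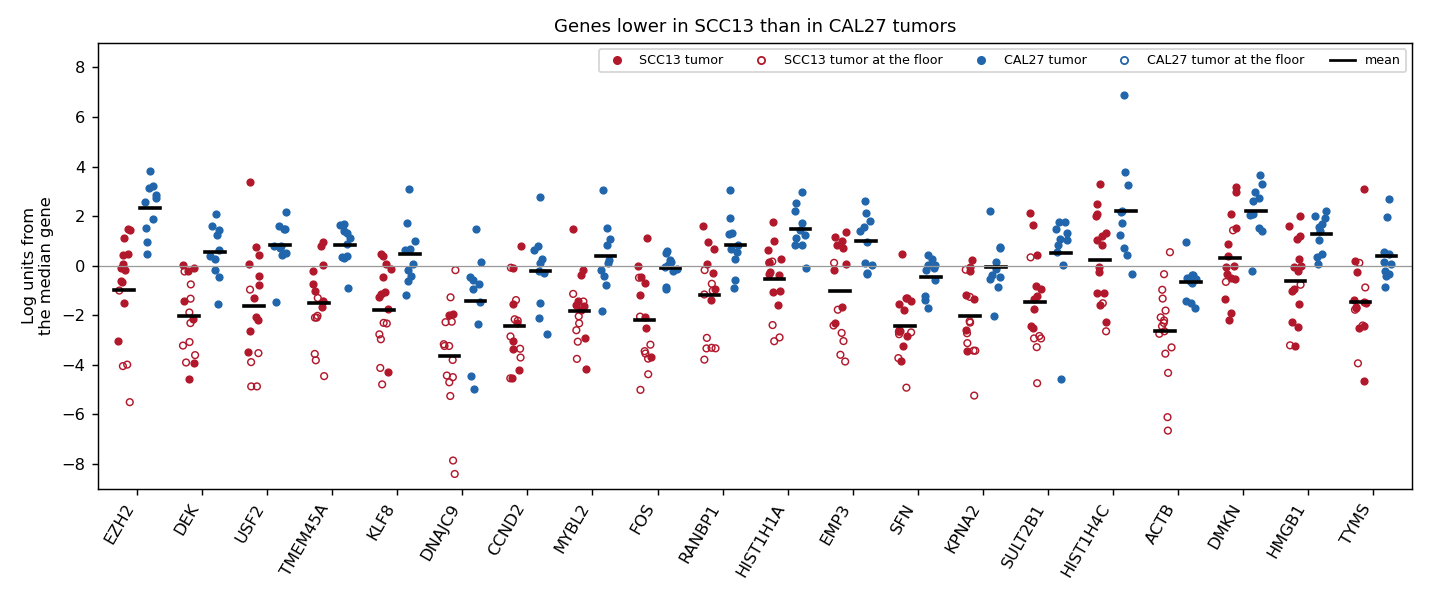
Each point is the value of a gene in 1 tumor, in log units from the median gene, with SCC13 tumors in red to the left of CAL27 tumors in blue, for the 20 genes lower in SCC13. Open points are at the floor and are upper bounds before centring, and bars mark means. No CAL27 value of these genes was at the floor, while all 20 genes had open points in SCC13, against 23 and 224 of all 327 genes with floor values in CAL27 and SCC13.

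Called the opposite way within the lines, and different in the comparison, were 6 genes. BIRC5, TUBB4B, KLF7 and ANXA2 were called higher in SCC13 tumors and lower in CAL27 tumors, and TMEM45A and USF2 the other way round. The BIRC5 call in SCC13 rests on floor values as described, and the ANXA2 mean in SCC13 lay below the non-targeting guides. In tumors of A431, the other line of the series, the means were -1.25 for BIRC5, 0.93 for TUBB4B, 0.62 for KLF7, -0.03 for ANXA2, 0.13 for TMEM45A and 0.53 for USF2 (n = 8 tumors). CDKN2B had a mean of 0.46 and EZH2 of -0.90 in the same A431 tumors. Differences between A431 tumors and either group were not tested here.

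Knockouts of EGFR, ITGB1, PFN1 and MCM5 were lost in both lines, and those of DEGS1 and TPM2 gained in both. In SCC13 tumors 78 genes were called lower than the median gene, against 72 in CAL27 tumors, and 46 were called lower in both, which is 59.0% of the SCC13 list and 63.9% of the CAL27 list. Of these 46, DNAJC9, FERMT1 and SMC4 also differed between the lines. In SCC13 tumors 77 genes were called higher, against 61 in CAL27 tumors, with 34 called in both, or 44.2% and 55.7% of the lists. On the deposited scale, where 0 is the non-targeting guides and not the median gene, 140 genes were lower in both lines and 3 were higher in both. Of these 34, ADM, CDKN2B and VIM also differed between the lines.

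EGFR, the epidermal growth factor receptor, was lost in both lines, with -5.31 at the lowest, -3.18 at the median and -0.23 at the highest in SCC13 tumors, against -4.29, -3.16 and -0.84 in CAL27 tumors. The difference was -0.12 log units with a 95% interval of -1.32 to 1.08. In SCC13 11 of the 16 EGFR values were at the floor, against 3 of 10 in CAL27. ITGB1, the beta-1 integrin subunit that pairs with most matrix-binding alpha subunits, averaged -2.73 ± 1.52 in SCC13 and -3.67 ± 1.83 in CAL27 tumors (difference 0.94, interval -0.36 to 2.24), with 11 SCC13 values and no CAL27 value at the floor. DUT, which removes dUTP from the nucleotide pool, had the lowest CAL27 mean, at -3.51 in SCC13 and -5.36 in CAL27 tumors (difference 1.85, interval 0.43 to 3.26, limma adjusted p = 0.0772). The maintenance DNA methyltransferase DNMT1 averaged -3.53 in SCC13 and -3.64 in CAL27 tumors (interval of the difference -1.19 to 1.40). The actin-binding profilin PFN1 averaged -2.89 and the replicative helicase subunit MCM5 -2.59 in SCC13 tumors, against -3.98 and -3.59 in CAL27 tumors, and neither passed in the comparison. These lost genes had 11 to 14 SCC13 values at the floor, where their true loss may be larger. With each column divided by its SD over genes, ITGB1 (limma adjusted p = 0.0136), DUT (adjusted p = 0.000402), MCM5 (adjusted p = 0.00866) and PFN1 (adjusted p = 0.0137) passed as higher, that is less lost, in SCC13 tumors, and EGFR did not (adjusted p = 0.352). With floor values ranked lowest the direction turned, and DUT (rank-sum permutation test, adjusted p = 0.00145), PFN1 (adjusted p = 0.000785) and DNMT1 (adjusted p = 0.000252) passed as lower in SCC13 tumors, while ITGB1 (adjusted p = 0.0893) and MCM5 (adjusted p = 0.0633) turned and did not pass. Without the 12 SCC13 tumors rich in floor values, the differences were -0.87 for DUT, -1.55 for PFN1, -1.88 for DNMT1, -0.58 for MCM5 and -0.27 for ITGB1, and none passed. The direction of these 5 differences is therefore not settled.

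Among the knockouts called above the median gene in both lines without a difference past the threshold, DEGS1, the desaturase that makes ceramide, had the highest levels. It ranged from 1.54 to 6.26 in SCC13 tumors with a median of 4.09, against 1.84 to 4.30 with a median of 2.46 in CAL27 tumors (difference 1.34, interval 0.14 to 2.54, limma adjusted p = 0.132). TPM2, a tropomyosin of actin filaments, averaged 3.96 in SCC13 and 2.49 in CAL27 tumors. CALML3, an epithelial calmodulin-like protein, averaged 2.92 in SCC13 and 1.38 in CAL27 tumors. INHBA, which encodes a subunit of activin A, averaged 2.72 and the interferon regulatory factor IRF3 2.71 in SCC13 tumors, against 1.35 and 1.73 in CAL27 tumors. DST, a linker of cytoskeleton and hemidesmosome, averaged 2.14 in SCC13 and 1.91 in CAL27 tumors. None of these 6 had a floor value in either line, and the median difference over the 103 genes without one was 0.81 log units. Relative to the non-targeting guides, DEGS1 averaged 2.45 in SCC13 and 1.91 in CAL27 tumors. The smallest such means among the 6 were 0.52 for DST in SCC13 and 0.54 for INHBA in CAL27 tumors.

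By function, 21 gene lists with at least 3 measured members were described, against a background of 6.12% of genes called in each direction and a median difference of 0.17 log units over all genes. Over the 103 genes never at the floor in either line, the median difference was 0.81. Without centring each difference shifts by -0.81 log units, so list medians such as 0.68 and 0.70 below fall under 0. Of 14 measured genes of chromatin enzymes, histones and chromatin proteins, 5 were lower in SCC13 tumors (EZH2, DEK, HIST1H1A, HIST1H4C and HMGB1) and none was higher, and the median difference was -0.86. Of the fits that left out 1 tumor, HIST1H4C passed in 12 of 26 and HMGB1 in 17 of 26, while EZH2, DEK and HIST1H1A passed in all. Of 25 markers of the invasive front and of mesenchymal cells, 4 were higher (VIM, CALD1, TNFRSF12A and FERMT1) and none was lower, with a median difference of 0.68. None of the 4 passed on the deposited scale or without the 12 SCC13 tumors rich in floor values. Within that list FERMT1 was lost in both lines, while VIM, CALD1 and TNFRSF12A lay above the median gene in SCC13. Of 9 keratins 1, KRT1, was higher and the median difference was 1.16. Among 6 tubulins and stathmin genes, TUBB4B and TUBB were higher, with a median difference of 0.70, and TUBB rests on floor values.

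Of 15 measured replication and nucleotide genes, 9 were called lower than the median gene in both lines, and 11 were at the floor in 8 or more SCC13 tumors. Over all 327 genes these counts were 46 and 69. Values below 0 were read as loss because of replication genes, so their low values are no separate evidence of loss. Over the 15 members, the median of the means was -2.05 in SCC13 and -2.15 in CAL27 tumors, with 10 called lower in SCC13 (background 23.9% of 327 genes) and 11 in CAL27 (background 22%). PCNA was higher and DNAJC9 and TYMS were lower in the comparison, and the median difference was 0.11. Of 19 genes of mitosis and the anaphase-promoting complex, 11 were called lower in SCC13 tumors (background 23.9%) and 10 in CAL27 tumors (background 22%), and BIRC5 and SMC4 were higher and KPNA2 lower in the comparison. Among 9 genes of G1 control and E2F, CDKN2B was higher and CCND2 lower. Of 9 AP-1, immediate early and MYC genes, JUN was higher and FOS lower. Of 11 integrins and partners, FERMT1 was higher in SCC13 and CD151, a tetraspanin that associates with integrins, did not pass (difference 1.52, limma adjusted p = 0.132).

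The epithelial lists held few differences. None of 10 hemidesmosome and laminin-332 genes, 13 cell junction genes or 12 proteases, inhibitors and serpins passed in either direction. The smallest adjusted p among the junction genes was that of the gap junction connexin GJB2 (difference 1.85, limma adjusted p = 0.054), and among the protease genes that of the metalloproteinase inhibitor TIMP3 (difference 1.72, adjusted p = 0.054). Of 14 squamous lineage factors only KLF7 passed, and of 10 S100 proteins and annexins ANXA2 and S100A16 were higher. Of 19 differentiation genes KRT1 was higher and DMKN lower. In the smaller lists, PTRF was the only caveolar gene of 4, ADM the only hypoxia gene of 7, DEFB1 the only gene of 6 in the interferon, MHC and NF-kB list and CDKN2B the only TGF-beta gene of 4 to pass, all higher. Of 11 actin genes CALD1 was higher and ACTB lower, and of 8 chaperone, ribosome and translation genes DNAJC9 alone passed and was lower.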

How the data were processed

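Guide abundance was measured by sequencing in 16 SCC13 and 10 CAL27 tumors. Per the submitters' processing notes, reads were processed with Bowtie2, and no source used here names its version, the genome build, the base of the logarithm, the pseudocount or the way guides were combined per gene. The authors deposited 1 headerless table per line of log fold changes per gene, a quantity with no stated base, and no counts, so the depth per sample is unknown and no interval for counting error can be given. The number of value columns equalled the number of tumors of each line.

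The non-targeting row was left out, and each column was centred on its median over 327 genes. The contrast of SCC13 minus CAL27 tumors was fitted with limma 3.58.1 in R 4.3.3 (lmFit and eBayes, only these 26 columns, no covariate) and adjusted by Benjamini-Hochberg over 327 genes at 0.05, and each line was fitted alone against 0 in the same way. A common log base and guide summary in both tables is assumed. Measures per tumor were compared by two-sided permutation tests with 100000 resamples (Python 3.11.15). The fits were tested on simulated normal values without a floor, so those tests do not cover values at a bound. Alternatives were the deposited scale, division by the SD, percentile ranks, a spread per line, A431 tumors in the fit, a rank-sum permutation test, and leaving out tumors or genes. Whether tumors came from the same mouse is not in the labels, so p-values cover the spread between tumors only, and the error of the initial cells is in no test.

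Named genes were the 12 most positive and 12 most negative differences past the threshold, ITGB1, FERMT1, EGFR and CDKN2B, the member with the smallest adjusted p of each of the 21 lists, genes called opposite ways, and the 6 lowest and 6 highest of the genes called the same way in both lines without a difference, 45 in all. The members of the comparison, the lists and the rule were chosen with earlier results of these data known. Guide sequences were not used here.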

Additional observations from a re-analysis of the deposited data

Results flagged for a closer look

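Among 48 groups of values over the 10 CAL27 tumors, 4 held a tumor far from the other 9, where chance gives about 1 in 20. CALML3 stood at 5.01 log units in 1 CAL27 tumor, with the other tumors lower. FAM46B stood at -2.42 and USF2 at -1.48 in 1 CAL27 tumor each, below the others. In 1 CAL27 tumor the median gene lay at -1.50 log units relative to the non-targeting guides. The 16 SCC13 tumors were not screened in this way, since the criterion covers at most 10 samples.

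Between the lines, 20 genes were higher and 20 lower in SCC13 tumors by a test of the difference itself. Past that test and called in opposite directions within the lines were BIRC5, with a difference of 4.05 log units, TUBB4B with 4.69, KLF7 with 3.56, ANXA2 with 2.44, USF2 with -2.49 and TMEM45A with -2.33. The part of mouse strain in these differences cannot be told apart from that of the line.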

How the results depend on the processing

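Counts of genes higher and lower in SCC13 tumors were 20 and 20. They were 9 and 46 on the deposited scale, 30 and 22 with columns divided by their SD, 25 and 34 with percentile ranks, 34 and 27 with an own spread per line, 32 and 26 with A431 tumors in the fit, 24 and 21 without SCC13 value column 3, 6 and 20 without the 12 SCC13 tumors with over 25.0% of genes at the floor, 20 and 19 without genes that share an exact value, and 23 and 18 by the rank-sum permutation test. For 2 alternatives chosen after seeing the data they were 20 and 61 with floor values ranked lowest, which is a worst case and no count of losses, and 16 and 1 over the 103 genes never at the floor. Genes lower in both lines numbered 46, against 140 on the deposited scale and 0 among genes never at the floor. Genes higher in both numbered 34, against 3 on the deposited scale and 7 without the floor-rich tumors. Genes called in opposite directions numbered 6, against 3 with A431 tumors added, 1 without the floor-rich tumors and 3 among genes never at the floor. Leaving out each tumor in turn gave 15 to 25 higher genes, 12 to 23 lower genes, 43 to 48 lower in both, 31 to 38 higher in both and 3 to 8 in opposite directions. The lower count was 12 without CAL27 value column 7. Without 1 tumor, the difference of the median gene ran from -0.95 to -0.73 log units, that of the SD from 0.56 to 0.68 log units and that of the floor share from 23.6 to 26.4 percentage points. Among genes that passed in the comparison or under the alternative named, directions turned for ADM with percentile ranks (-1.46 percentile points) and, as mean rank differences with floor values ranked lowest, for BIRC5 (-7.47), SMC4 (-6.99), TUBB (-6.66), DNMT1 (-12.7), DUT (-9.75) and PFN1 (-10.7), which follows from placing their many floor values at the bottom. Among genes that passed in neither, ITGB1 (-6.50) and MCM5 (-6.66) also turned with floor values ranked lowest, DEGS1 (-1.52) and TPM2 (-2.30) with percentile ranks, and DNMT1 (-1.88), DUT (-0.87), ITGB1 (-0.27), MCM5 (-0.58), PFN1 (-1.55) and TPM2 (-0.25) without the floor-rich tumors. CD151, DST, EGFR and IRF3 also changed sign in at least 1 alternative without passing there. The cause of the other changes was not tested. No paired analysis was possible because the value columns carry no replicate numbers. Depth is unknown, and no value below the floor can be read.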

Other observations

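Across the 16 SCC13 tumors, the share of genes at the floor was set against the centred value of each of the 13 higher genes that were never at the floor, which makes 13 relations. Both measures come from the same column, and centring on the median gene enters the second. All 13 Pearson correlations were positive, and 7 of them were negative without value columns 5 and 8. On the deposited scale 2 of 13 were negative, DEFB1 and RFX5, and 0 of 13 passed after adjustment, with the lowest adjusted p = 0.105 for ADM. ADM had r = 0.69 (permutation test, p = 0.00225, adjusted p = 0.0292) and a Spearman correlation of 0.62 (p = 0.0124, adjusted p = 0.073), and r was 0.67 without value columns 5 and 8, the 2 tumors farthest from the median share. KLF7 had r = 0.66 (p = 0.00464, adjusted p = 0.0302) and a Spearman correlation of 0.60 (adjusted p = 0.073), with r = 0.42 without those tumors. CDKN2B had r = 0.56 (p = 0.0231, adjusted p = 0.0637) and a Spearman correlation of 0.45 (adjusted p = 0.211), and r fell to 0.30 without them. TUBB4B had r = 0.22 and RFX5 had r = 0.01, neither of which passed. After adjustment 2 of 13 passed by Pearson and 0 of 13 by Spearman. For ADM r hardly moved without value columns 5 and 8, and for KLF7 and CDKN2B it was smaller without them.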
